A study of Mus musculus with 4 samples.

Results

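The neurotrophins and their receptors were examined in the hippocampus of newborn mice (postnatal day 2). The genes were taken by name as Bdnf, Ntf3, Ntrk2, Ntrk3, Ngfr and Sort1, and every probe set annotated to one of these symbols alone was used. Of the 6 genes, 5 had such probe sets, 24 in all among the 45037 probe sets of the table (2 for Bdnf, 8 for Ntrk2, 8 for Ntrk3, 3 for Ngfr and 3 for Sort1), and Ntf3 was not analysed here. Total RNA had been hybridised to 4 Affymetrix arrays, 2 from tissue of the genotype labelled wildtype, used as control, and 2 from tissue labelled ZBTB20 knockout, whose controls were littermates. The study sought target genes of the transcription factor ZBTB20 in hippocampal development. The strain, sex, targeted allele and number of animals per array are unknown from the sources used here. Separate animals are not stated for the arrays of a group, so p-values measure only spread between these arrays, pooled as described below. In such tissue RNA, fewer cells of a type and less RNA per cell cannot be told apart.

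Neurotrophins are secreted growth factors that are cleaved from larger precursors. The mature forms act through Trk receptor tyrosine kinases: brain-derived neurotrophic factor (BDNF) through TrkB, the product of Ntrk2, and neurotrophin 3 through TrkC, the product of Ntrk3. The precursors bind a complex of the p75 receptor, the product of Ngfr, with sortilin, the product of Sort1. In the hippocampus BDNF is made mainly by glutamatergic neurons, its transcription is driven by neuronal activity, and it supports dendrite growth and synaptic plasticity. Ntrk2 and Ntrk3 each give a kinase form and truncated forms without the kinase, and in the brain a truncated TrkB is abundant in astrocytes.

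The arrays with the same replicate number shared a scale, with median signals of 142.3 (control) and 129.9 (knockout) for replicate 1 and of 73.8 and 75.8 for replicate 2. Arrays were therefore compared within each replicate number, as pair 1 and pair 2, and a difference is the value of the array labelled knockout less that of its control. Signals are given in that order of labels, control first. Differences are on the scale of log2(signal + 32.56), which understates the change of dim probe sets, counts past 2-fold are on this scale unless a signal ratio is named, and with single arrays on each side a pair has no test. Of the 9 probe sets of Zbtb20 itself, 0 had the lower knockout signal in both pairs, so they left the genotype labels unsettled, and directions follow the labels. The replicate 1 arrays carried liver transcripts: of 10 measured liver genes 9 were over 2-fold lower under the knockout label in pair 1 (2.58% of all genes), where the albumin signal (Alb) was 39309 and 15195, against 42.2 and 45.2 in pair 2. Of the 8 listed markers of hippocampal neurons, which include Zbtb20 itself, 8 were measured, with medians of log2 0.14 and 0.10 in the pairs. Among them Nectin3 was at 1.70 and -0.96, while 5 of the 8 were higher in both pairs, as were 2821 of 12581 genes. In limma's test over all 4 arrays, with Benjamini-Hochberg adjustment, 0 of the 27022 probe sets kept after a filter on dim signal were called at an adjusted p of 0.05 (0%), while 5 had a raw p under 0.05. A fit that blocked on the replicate number also called 0 (0%), and 330 had a raw p under 0.05.

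The knockout label had the higher Bdnf signal in pair 1 and the lower one in pair 2, on both probe sets of the gene. The suffix _a_at marks a probe set that matches alternative transcripts of 1 gene. For 1422168_a_at the signal was 71.3 (control) and 326.1 (knockout) in pair 1, and 128.28 (control) and 48.05 (knockout) in pair 2. The control array was thus the low one in pair 1 and the high one in pair 2, and the groups overlapped. The knockout signal was 4.57 times the control signal in pair 1 and 0.375 times in pair 2, or log2 1.79 and -0.997 on the pseudocount scale. For 1422169_a_at the signal was 87.2 and 185 in pair 1 and 134.82 and 95.51 in pair 2. It had the same order of arrays at smaller ratios, 2.12 and 0.708, with log2 differences of 0.86 and -0.39. Neither direction of either probe set turned under another scaling or pseudocount, over which 1422168_a_at lay between 1.52 and 2.19 in pair 1 and between -1.75 and -0.77 in pair 2.

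The Bdnf signals were of middling brightness. The low value of 1422168_a_at in each pair lay below the median of its array, at percentile 35.2 (control, pair 1) and 31.7 (knockout, pair 2). The high values lay at percentiles 66.3 and 67.9. Over both pairs limma gave 1422168_a_at a difference of 0.40 ± 0.82 (SE, n = 2 per group, adjusted p = 1) and 1422169_a_at one of 0.24 ± 0.84 (adjusted p = 1). With the block the SE were 0.57 and 0.33, and the adjusted p from limma was 0.9999 for both.

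Bdnf is transcribed from several starts, and its activity response is known to rest partly on a cyclic-AMP response element (CRE) close to one of them. The upstream sequences are shown because the CRE-binding factor gene Creb1 and other regulators of Bdnf were measured below, and because most Ntrk2 probe sets had the signs of Bdnf. Whether Bdnf and Ntrk2 share a regulator was not tested. RefSeq promoter windows of build GRCm38.p6 were found for 3 of the 5 measured genes (7 for Bdnf, 1 for Ntrk2 and 1 for Ngfr), and the 250 bases before each start were searched on both strands. The letters TCACGTCA, the known element of Bdnf, occurred in 1 of these 9 windows, the third of Bdnf by position, and in 0.35% of 32851 windows of the same length. The consensus TGACGTCA occurred in 0 of the 9 and in 1.55% of all windows. Its shorter site TGACG occurred in 1 of the 9, as part of the same Bdnf match on the other strand, and in 17.8% of all. The E-box CACGTG occurred in 0 of the 9 and in 6.02% of all. The windows below run 5′ to 3′ to the base before the start, Bdnf on the plus strand at chr2:109692186-109692435 and Ntrk2 on the plus strand at chr13:58806319-58806568, with the match in capitals, beginning 38 bases before the Bdnf start.
Bdnf: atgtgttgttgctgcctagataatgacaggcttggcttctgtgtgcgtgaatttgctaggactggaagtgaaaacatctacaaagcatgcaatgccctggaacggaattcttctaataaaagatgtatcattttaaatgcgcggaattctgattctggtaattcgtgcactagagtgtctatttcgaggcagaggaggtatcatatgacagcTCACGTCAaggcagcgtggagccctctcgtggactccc
Ntrk2: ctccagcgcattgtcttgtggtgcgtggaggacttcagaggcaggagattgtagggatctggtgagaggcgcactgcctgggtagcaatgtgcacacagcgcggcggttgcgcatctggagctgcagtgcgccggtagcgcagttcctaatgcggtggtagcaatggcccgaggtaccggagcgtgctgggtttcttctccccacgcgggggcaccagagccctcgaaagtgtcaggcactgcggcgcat
The sources used here do not say which start gave the array signal, and a match of letters is no measure of binding.

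**Figure D1:**
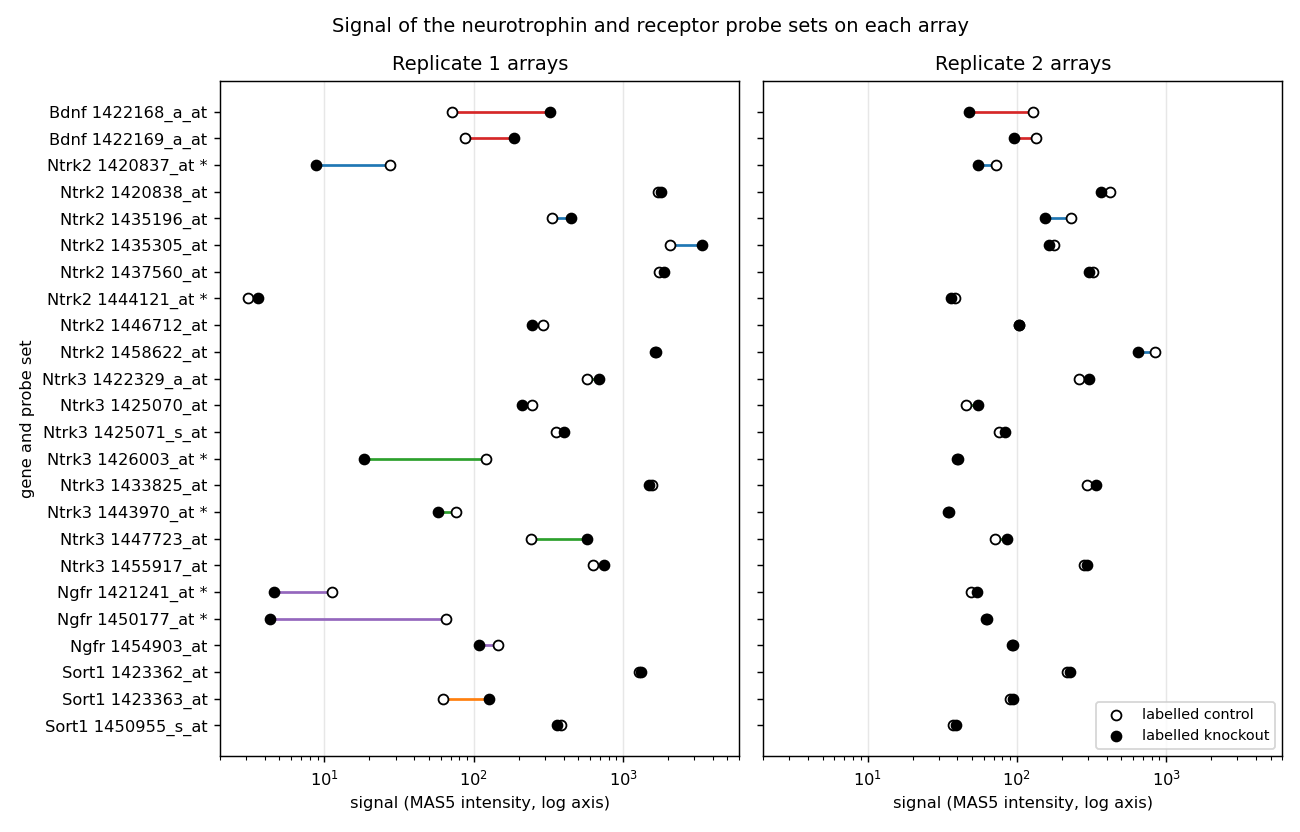
Signal of each of the 24 probe sets (MAS5 intensity, log axis) on the replicate 1 arrays (left) and the replicate 2 arrays (right). Open circles are the arrays labelled control, filled circles those labelled knockout, the coloured lines join them and an asterisk marks a probe set that did not pass the filter on dim signal. Both Bdnf probe sets are higher in the knockout array at left and lower at right, and most receptor probe sets lie close together.

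Ntrk2, the BDNF receptor gene, had the signs of Bdnf on 6 of its 8 probe sets, at smaller sizes, and the other 2 were lower in both pairs. The 8 share the same RNA and are not replicates. Among the 6, 1444121_at did not pass the filter, with signals of 3.1 and 3.6 in pair 1, and 1458622_at differed by only 0.02 there. Being higher in pair 1 and lower in pair 2 was seen in 20.9% of all probe sets. All 8 members with this combination belonged to Bdnf or Ntrk2, and 0 of the probe sets of Ntrk3, Ngfr and Sort1 had it. The medians over the 8 Ntrk2 probe sets were 0.04 and -0.14, beside -0.05 and 0.02 over all probe sets.

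The Ntrk2 probe sets differed from each other most in pair 1. At 1435305_at the signal was 2061.9 and 3374.8 in pair 1, against 177.32 and 162.88 in pair 2. Its ratio of 1.64 in pair 1 (log2 0.70) was the highest of the 8, while pair 2 gave 0.919 (log2 -0.10). At 1435196_at the signals were 334.5 and 448.7 in pair 1 and 229.35 and 154.24 in pair 2, log2 0.39 and -0.49. This was the Ntrk2 probe set with the lowest value in pair 2, at a ratio of 0.673. Its groups overlapped, as did those of 1435305_at, and the pairs lay on different scales.

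The 3 other bright Ntrk2 probe sets differed by 0.02 to 0.12 in pair 1. The brightest, 1458622_at, had signals of 1633.5 and 1658.6 in pair 1 and of 842.21 and 649.53 in pair 2, with log2 differences of 0.02 and -0.36. At 1420838_at they were 1722.3 and 1801 in pair 1 and 417.82 and 364.71 in pair 2, giving 0.06 and -0.18. At 1437560_at they were 1740.4 and 1888 in pair 1 and 321.1 and 306.19 in pair 2, giving 0.12 and -0.06. The difference at 1435305_at in pair 1 was thus not shared by these, which belong to the same gene. At 1446712_at the signals were 292.3 and 247.1 in pair 1 and 103.13 and 102.78 in pair 2, log2 -0.22 and -0.00373, and the pair 2 sign turned when arrays were scaled to 1 trimmed mean.

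The other 2 Ntrk2 probe sets did not pass the filter. On 1420837_at the signals were 27.5 and 8.8 in pair 1 and 72.96 and 55.2 in pair 2, and on 1444121_at they were 3.1 and 3.6, then 38.49 and 36.21. These lay below the median of every array. The sources used here do not say which probe sets detect the kinase form and which a truncated form. For the 6 kept probe sets limma's differences lay between -0.17 and 0.30 with an adjusted p of 1, and the blocked fit gave an adjusted p of 0.9999 for each.

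Most markers of astrocytes and of GABAergic interneurons had the signs of Bdnf and Ntrk2. Of 8 measured astrocyte genes, 5 had a positive difference in pair 1 and a negative one in pair 2, and the medians were 0.14 and -0.34. The summed signal of the 9 listed, 1 of which did not pass the filter, was 15678 and 19473 in pair 1 and 6285 and 4544 in pair 2. Gfap (-0.10 and -0.41) and Aldoc (-0.08 and -0.15) were lower in both pairs, and Fgfr3 (0.03 and 0.22) was higher in both. With the signs of Bdnf, the water channel gene Aqp4 was at 1.46 and -1.42 and the glutamate transporter gene Slc1a2 at 0.77 and -0.31. The gap junction gene Gja1 was at 0.73 and -0.94, Aldh1l1 at 0.22 and -0.24, and Slc1a3 at 0.05 and -0.36. Of 8 interneuron genes, 7 had these signs, with medians of 0.28 and -0.80 and summed signals of 10316 and 13542, then 4094 and 2319. Over all 12581 genes with a kept probe set, 26.1% had this combination of signs. The 6 pan-neuronal genes had medians of 0.14 and 0.11, and 3 of them had these signs. Markers of the subiculum, retrosplenial and deep cortex, a list that holds genes known to move in these samples, had the reverse signs on 7 of 9 genes, with medians of -1.03 and 1.29 and summed signals of 43453 and 18734, then 4468 and 12381. The part of these cell types in the Bdnf and Ntrk2 values was not tested.

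Ntrk3, the receptor gene for neurotrophin 3, had the higher signal under the knockout label of pair 2 on 7 of its 8 probe sets, and its probe sets disagreed in pair 1. In pair 2 they spanned log2 -0.01 to 0.20. In pair 1 they spanned -1.58 to 1.14. Of the 8 probe sets 4 were higher in both pairs, which 24.2% of all probe sets were. Another 3 had the reverse signs of Bdnf, a combination held by 32.1% of all probe sets. Together these shares cover every probe set with the higher knockout signal in pair 2, so that direction was common beyond Ntrk3.

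The widest disagreement was between 1447723_at and 1426003_at. On 1447723_at the signal was 241.5 and 570.8 in pair 1 and 71.24 and 85.81 in pair 2. The knockout array was the higher in each pair, with log2 differences of 1.14 and 0.19 and a ratio of 2.36 in pair 1. On 1426003_at the signal was 120.3 and 18.5 in pair 1 and 40.09 and 39.73 in pair 2, log2 -1.58 and -0.01, and its pair 2 sign turned when arrays were scaled to 1 trimmed mean. It did not pass the filter, and its signals lay below the median of every array. In pair 1, 3.63% of all probe sets were past 2-fold upward and 6.48% downward.

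For 1447723_at limma gave a difference of 0.66 ± 1.06 (SE, n = 2 per group, adjusted p = 1). With the replicate block the SE was 0.26, the raw p from limma was 0.0390 and the adjusted p 0.9999. It was the only member under an unadjusted p of 0.05 in that fit, where 330 of 27022 probe sets were, and it was not called.

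The bright Ntrk3 probe sets differed less within the pairs. On 1433825_at, the brightest, the signals were 1558.5 and 1485.8 in pair 1 and 294 and 338.66 in pair 2, log2 -0.07 and 0.18. On 1455917_at they were 624.8 and 741.4, then 279.83 and 296.11, giving 0.24 and 0.07. On 1422329_a_at they were 570 and 692.1, then 261.21 and 303.75, giving 0.27 and 0.20. The knockout array was the higher in both pairs on the last 2 of these, by ratios of 1.06 to 1.21, and the limma blocked fit gave 1422329_a_at 0.23 ± 0.17 (SE, adjusted p = 0.9999). On 1425071_s_at, whose suffix marks probes shared between transcripts, the signals were 353.5 and 399.8 in pair 1 and 76.11 and 83.17 in pair 2, giving 0.16 and 0.09. On 1425070_at they were 246.5 and 210.8, then 45.27 and 54.57, giving -0.20 and 0.16. The dim 1443970_at had signals of 75.5 and 57.8, then 34.73 and 35.28, and its pair 2 difference of 0.01 was below 0 under centring on the 75th percentile or quantile normalization.

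**Figure D2:**
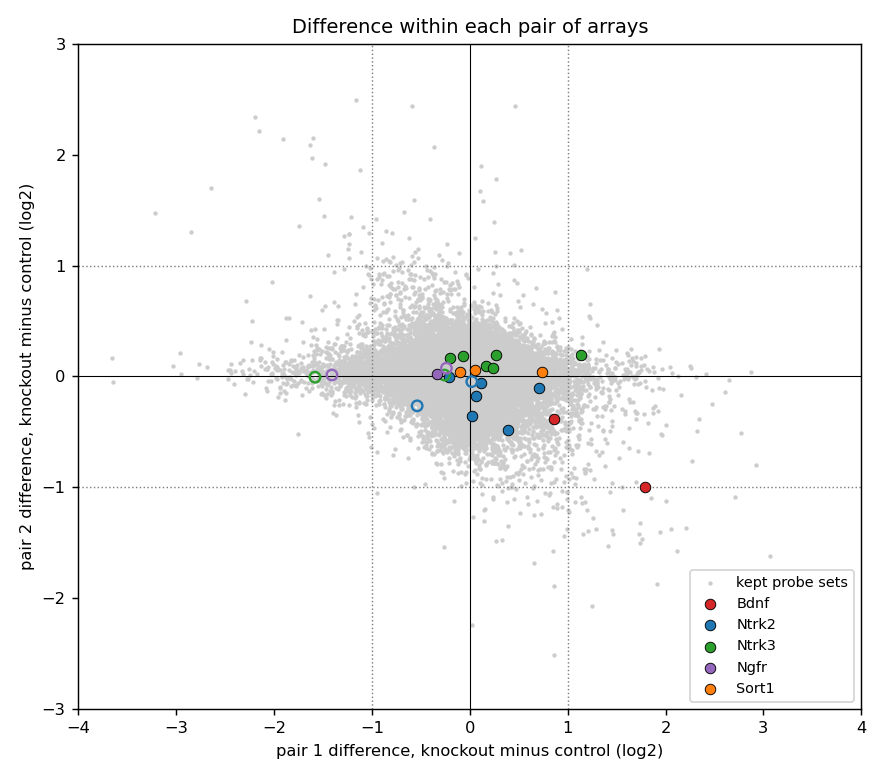
Difference within pair 1 (horizontal) against pair 2 (vertical), as labelled knockout minus labelled control on the log2(signal + pseudocount) scale. Grey points are the 27022 kept probe sets, coloured points the members (open where not kept), and dotted lines mark 2-fold. Bdnf lies at the lower right, Ntrk2 mostly below the horizontal zero line, and Ntrk3 at or just above it with the points spread in pair 1.

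Ngfr, the gene of the p75 receptor, had the lower signal under the knockout label of pair 1 on all 3 probe sets, while in pair 2 the differences were 0.01 to 0.07. This combination of signs was seen in 32.1% of all probe sets. On 1454903_at, the only one kept, the signal was 144.6 and 107.8 in pair 1 and 92.6 and 94.34 in pair 2. These are log2 differences of -0.34 and 0.02, and the pair 2 sign turned with quantile normalization. On 1450177_at the signals were 65.3 and 4.3 in pair 1 and 62.15 and 62.97 in pair 2, and on 1421241_at they were 11.3 and 4.6, then 49.58 and 53.88. Both of these lay below the median of every array. The pair 1 difference of 1450177_at, -1.41 with the pseudocount, lay between -3.92 and -0.91 over the other scalings and pseudocounts, and its pair 2 difference of 0.01 was below 0 under centring or quantile normalization. For 1454903_at limma gave -0.16 ± 0.78 (SE, n = 2 per group, adjusted p = 1).

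Ngfr is known from basal forebrain cholinergic neurons, whose axons reach the hippocampus, and from meningeal cells. Of 6 cholinergic markers 1 passed the filter, and 4 lay below the median of every array. The one that passed, the transcription factor gene Isl1, was at 0.30 and -0.56. Choline acetyltransferase (Chat) was at -0.89 and -0.07, and the choline transporter gene Slc5a7 at 0.55 and 0.09, both on dim probe sets. Slc18a3, with signals of 110 and 16 in pair 1, was at -1.55 and -0.04. Lhx8, with signals of 96.77 and 24.69 in pair 2, was at -0.07 and -1.18. Gbx1 was at -0.03 and -0.14. The summed signal of the 6 was 271.9 and 166, then 363.1 and 236. Meningeal markers, 8 of 8 measured, had medians of -0.24 and -0.26, with 3 of the 8 over 2-fold lower in pair 1 (2.58% of all genes). In pair 2, Dcn was over 2-fold higher (1.36) and Ptgds over 2-fold lower (-1.01), as were 32 and 51 of all 12581 genes. The summed signal of the 8 was 11466 and 9532 in pair 1 and 1322 and 1544 in pair 2. Dcn gave 319.62 and 869.03 of the pair 2 sums. The part of these cell types in the Ngfr values was not tested.

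Sort1, the sortilin gene, differed by at most log2 0.74 within a pair over its 3 probe sets. On the brightest, 1423362_at, the signals were 1268.6 and 1312.6 in pair 1 and 216.93 and 227.14 in pair 2. Both pairs gave small positive differences, log2 0.05 and 0.06, with ratios of 1.03 and 1.05. On 1450955_s_at the signals were 386.6 and 358.3, then 37.49 and 39.34, giving -0.10 and 0.04. The dimmer 1423363_at was at 62.1 and 125.7 in pair 1 (log2 0.74, a signal ratio of 2.02) and at 89.99 and 93.51 in pair 2 (log2 0.04). Its replicate 1 signals both lay below the median of their arrays. For 1423362_at limma gave 0.05 ± 1.49 (SE, n = 2 per group, adjusted p = 1), and the SE was 0.17 with the block (adjusted p = 0.9999).

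Across the 24 probe sets, 18 passed the filter, 6 were higher in both pairs, 3 were lower in both and 15 had opposite signs (62.5%). Opposite signs were seen in 53.0% of all probe sets. Of the 18 kept, limma called 0 without and 0 with the block, with 0 and 1 under an unadjusted p of 0.05. On the pseudocount scale, 2 members were over 2-fold upward in pair 1 (Bdnf 1422168_a_at and Ntrk3 1447723_at) and 2 downward (Ntrk3 1426003_at and Ngfr 1450177_at), and in pair 2 0 were. In pair 2, the share of all probe sets past 2-fold was 0.153% upward and 0.178% downward, and Bdnf 1422168_a_at was at -0.997. These counts rest on the pseudocount: 4 of 5 alternative scalings and pseudocounts put Bdnf 1422168_a_at past 2-fold in pair 2. By the plain signal ratio, 4 members were over 2-fold upward in pair 1 (10.6% of all probe sets), with Bdnf 1422169_a_at and Sort1 1423363_at added, and 4 downward (16.6%), with the dim Ntrk2 1420837_at and Ngfr 1421241_at added. In pair 2, 0 were over 2-fold upward by that ratio (0.402%) and 1, Bdnf 1422168_a_at, downward (0.451%).

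Other genes of the pathway were read from 6 lists, each gene by its brightest kept probe set. Of 81 listed genes 68 were measured. By that probe set limma called 0 of them without and 0 with the block, with 0 and 1 under an unadjusted p of 0.05. Their medians were 0.02 and 0.02, beside -0.01 and -0.00063 over all 12581 genes, and 40 of 68 (58.8%) had opposite signs, against 53.5% of all genes.

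Among other ligands and receptors, Sorcs3, a sortilin-related receptor gene, had signals of 235.2 and 540 in pair 1 and of 96.98 and 70.29 in pair 2, log2 1.10 and -0.33. It had the signs of Bdnf, on both of its kept probe sets, as did Sorcs2 at 0.30 and -0.09. Sorl1 was at 0.46 and 0.15 and Sorcs1 at -0.34 and -0.21. Of the 5 measured genes 2 had these signs, and the limma adjusted p of Sorcs3 was 1 (difference 0.38 ± 1.06, SE, n = 2 per group).

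Genes that process the precursors had members in both directions. The 10 measured had medians of -0.16 and 0.02, and 2 were lower in both pairs, as were 3016 of all 12581 genes. These 2 were the protease gene Furin at -0.56 and -0.12 and Plat, the tissue plasminogen activator gene, at -0.52 and -0.17. Plasminogen (Plg), which the liver secretes, had signals of 458.4 and 216.8 in pair 1 and of 26.1 and 29.9 in pair 2. The sorting receptor and carboxypeptidase gene Cpe was at 0.50 and 0.04, and Serpini1, the neuroserpin gene, at -0.16 and 0.57.

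Adaptors and regulators of Trk receptors had small medians. The 21 measured had medians of -0.04 and 0.03, and 0 of them were over 2-fold apart in either pair on the brightest probe set and the pseudocount scale. Kidins220, a scaffold of Trk receptors, was at -0.04 and 0.30, and the adaptor gene Shc3 at -0.91 and 0.02, from signals of 342.6 and 167.4 in pair 1 and of 31.9 and 32.9 in pair 2. The phosphatase gene Ptpn11 was at -1.31 and -0.06 on the dim 1421196_at and at -0.05 and -0.25 on its brightest probe set. Of 9 partners of p75, with medians of -0.05 and 0.04, Bex3, a p75-interacting protein gene, was at 0.02 and -0.70 and Bex1 at -0.10 and -0.38. Irak1 was at 2.48 and -0.25 on 1438857_x_at and at 0.37 and -0.26 on its brightest probe set. The pair 1 signals of 1438857_x_at were 27.8 and 304, the control one below the pseudocount. Of the 4 kept Irak1 probe sets, 2 had the signs of Bdnf, 1 was higher in both pairs and 1 lower in both.

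Mef2c, an activity-dependent transcription factor gene among the regulators of Bdnf, was higher under the knockout label in both pairs on all 5 of its kept probe sets, as were 24.6% of all kept probe sets. They lay between 0.26 and 0.87 in pair 1 and between 0.76 and 1.14 in pair 2. At 1451507_at the signals were 1524.6 and 2205.4 in pair 1 and 236.23 and 558.8 in pair 2, and at 1424852_at they were 3121.1 and 3746.9, then 749.15 and 1665.31. The knockout array was the higher in each pair, but limma did not call it (for 1451507_at 0.83 ± 1.62, SE, n = 2 per group, adjusted p = 1, and 0.9999 with the block). The 5 probe sets share the same RNA and are not replicates. Creb1 was at 0.19 and 0.42 on its brightest probe set, and of its 3 kept probe sets 1 was higher in both pairs and 1 lower in both. Tcf4 was at 0.05 and 0.08 there and at -1.49 and 0.43 on 1416725_at. The pair 1 signals of 1416725_at were 129.8 and 25.4, the knockout one below the pseudocount. The 11 measured regulators had medians of 0.17 and 0.00367, the latter turning sign with centring on the 75th percentile. Npas4, an activity-induced factor gene, did not pass the filter, with signals of 19.2 and 78.5 in pair 1 and of 43.98 and 38.89 in pair 2.

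Genes induced by Trk signalling went both ways. Of 12 measured, 10 had opposite signs, 4 with the signs of Bdnf and 6 with the reverse, which 27.4% of all genes had. With the signs of Bdnf were the immediate early gene Fos, at 0.27 and -0.17, and Nrn1 (neuritin), at 0.21 and -0.35. So was Egr3, at 0.58 and -0.76 on its brightest probe set, although 1421486_at of Egr3 gave -1.07 and 0.11. The pair 1 signals of 1421486_at were 93.3 and 27.5, the knockout one below the pseudocount. With the reverse were the ETS factor gene Etv5, at -0.61 and 0.88, the receptor kinase inhibitor gene Spry2, at -0.47 and 0.41, and Vgf, a neuropeptide precursor gene, at -0.43 and 0.25. Etv5 had these signs on all 3 of its kept probe sets, and Spry2 on 1 of 2. The medians were 0.01, which turned sign with quantile normalization, and 0.11, and limma called 0 of the 12 without and 0 with the block.

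**Figure D3:**
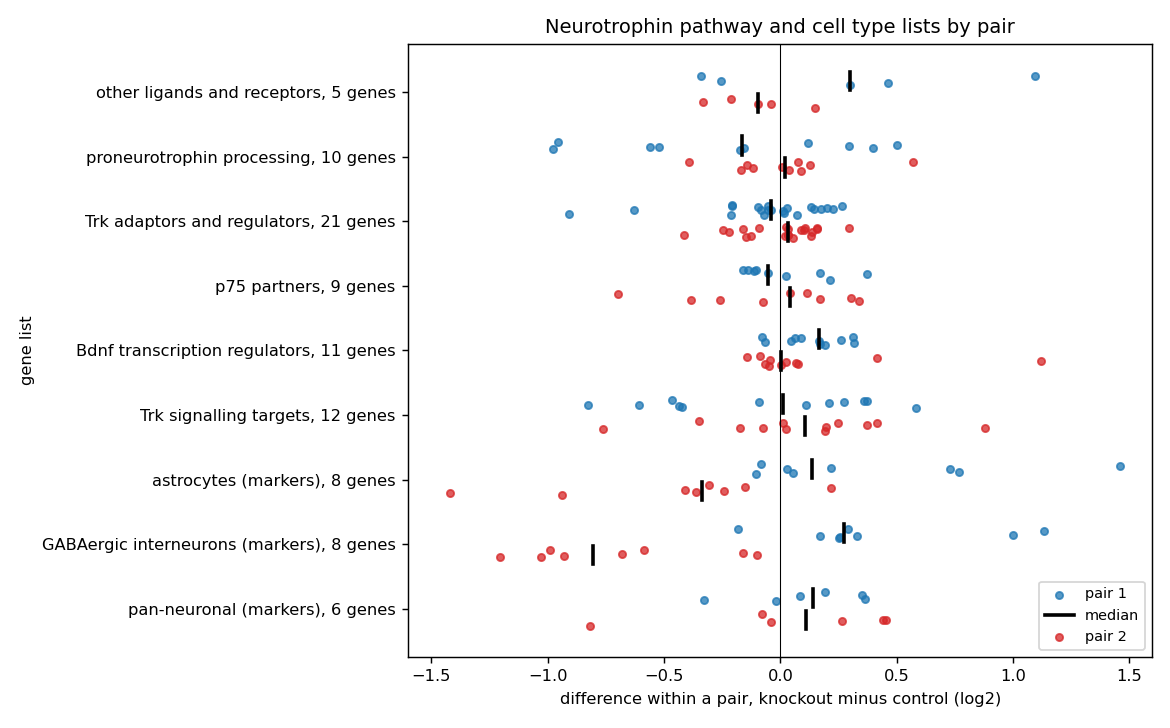
Difference within pair 1 (blue) and pair 2 (red) of each measured gene, as labelled knockout minus labelled control (log2), for 6 lists of neurotrophin pathway genes and 3 lists of cell type markers. Black bars are medians. The pathway medians lie between -0.16 and 0.30, while those of astrocytes and GABAergic interneurons lie above 0 in pair 1 and at -0.34 and -0.80 in pair 2.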

How the data were processed

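The authors deposited signal intensities on a linear scale for 4 arrays. Per the submitters' processing notes, MAS5 was used. The version, scaling target and genome build are not given in the sources used here. The number of arrays limits the precision. The platform annotation gave 34945 of 45037 probe sets 1 gene symbol, 932 several and 9160 none, and only the first were named. Groups and replicate numbers follow the sample titles.

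Signals were transformed as log2(signal + 32.56), the pseudocount being the 20th percentile of all values. A filter on the mean, at the 40th percentile, kept 27022 probe sets, which represent 12581 genes. limma 3.58.1 in R 4.3.3 (lmFit, eBayes with trend) tested knockout minus control on all 4 arrays without a covariate, with Benjamini-Hochberg adjustment over all kept probe sets at 0.05. The script was tested on simulated data. Its error holds the difference between both scales, so the SE of this fit are wide. The replicate number is not stated to mark a litter or day. As both scales follow it, values within each pair and a fit with the number as a block are also given. Across kept probe sets, the deviations from the group mean correlated at 0.837 between arrays of the same number. The designed fit had 2 residual degrees of freedom and an infinite prior, the blocked one 1 and a prior of 5.98. With the infinite prior, the SE of the designed fit followed a trend with brightness over the kept probe sets. They are thus not the spread of the single probe set. Ntrk2 1435305_at and Ntrk3 1433825_at, both with a mean log2 value of 9.52, both had an SE of 1.57.

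The members, gene lists and tests were chosen with earlier results of these data known. Named were all member probe sets and, of each pathway list, up to 4 kept probe sets over 2-fold apart in either pair on the pseudocount scale. Other listed genes were picked as examples after their values were seen. Genes resembling a member were to be named where its brightest probe set was over 2-fold apart on the pseudocount scale, which applied to 0 members. Sequences are RefSeq promoter windows of GRCm38.p6.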

Additional observations from a re-analysis of the deposited data

How the results depend on the processing

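The number of member probe sets called, 0, and of pathway probe sets called, 0, was the same under centring, scaling to 1 trimmed mean, quantile normalization, no filter, a floor of 1 in place of the pseudocount, a filter at the 60th percentile, a pseudocount at the 40th percentile, 1 probe set per gene, eBayes without trend or robust, the replicate block (0 member and 0 pathway probe sets called, with 1 of 18 and 6 of 139 under an unadjusted p of 0.05 in limma) and leaving out each array. The lowest adjusted p of a member over these limma fits was 0.9986. In the blocked limma fit, 330 of all 27022 kept probe sets were under an unadjusted p of 0.05. With 1 probe set per gene, 1 of 68 pathway genes was, beside 150 of all 12581 genes. Member probe sets lower in both pairs numbered 3, against 6 with quantile normalization, 1 with scaling to 1 trimmed mean and 5 with centring. These counts turn on pair 2 differences of at most 0.02 in size. Of 48 pair differences, 5 turned sign under at least 1 of the 5 scalings and pseudocounts.

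Over both pairs the difference of Bdnf 1422168_a_at turned to -0.11 with quantile normalization, and that of Ntrk3 1425070_at to 0.064 with quantile normalization, 0.014 with scaling and 0.022 with the floor; the cause was not tested. Leaving out 1 array sets arrays of different scales against each other and turned the sign of 17 of 18 differences. Bdnf 1422168_a_at then lay between -0.68 and 1.47, and 1422169_a_at between -0.14 and 0.62. Ngfr 1454903_at lay between -0.41 and 0.093. The Ntrk2 ranges were -1.16 to 1.04 for 1420838_at, -0.73 to 0.63 for 1435196_at, -1.76 to 2.36 for 1435305_at, -1.23 to 1.28 for 1437560_at, -0.74 to 0.52 for 1446712_at and -0.82 to 0.49 for 1458622_at. The Ntrk3 ranges were -0.32 to 0.78 for 1422329_a_at, -0.94 to 0.90 for 1425070_at, -0.82 to 1.08 for 1425071_s_at, -1.08 to 1.201 for 1433825_at, -0.51 to 1.84 for 1447723_at and -0.46 to 0.77 for 1455917_at. Those of Sort1 were -1.14 to 1.24 for 1423362_at and -1.32 to 1.26 for 1450955_s_at, and 1423363_at kept its sign (0.20 to 0.58).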
